A study of Xenopus laevis with 12 samples.

Results

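Goosecoid and not are homeobox transcription factors of the Spemann organizer, the dorsal tissue of the frog gastrula that patterns the germ layers around it. Xenopus laevis is allotetraploid and carries both genes on its L and its S subgenome, so the members are gsc.L, gsc.S, not.L and not.S, chosen by name. They are 4 of the 18892 genes in the deposited count table, and each was examined apart and as the sum of its L and S copy. The table held 1 more row with a similar name, gsc2, which is another gene and was not added to gsc.

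The organizer forms where a maternal Wnt signal, acting through beta-catenin and the homeobox genes siamois and twin, meets Nodal signals from the vegetal cells. Goosecoid is a repressor that keeps ventral genes such as ventx and wnt8a out of the organizer and marks its prechordal part, while not promotes formation of the notochord. Opposing BMP signals and their ventral targets limit both genes to the dorsal side.

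The libraries were made from whole embryos at stage 9.5, the early gastrula per the labels, with RNA of 3 embryos per replicate and no strain or genotype described. The control group is labelled as control only. Genistein, a plant isoflavone that inhibits tyrosine kinases, was applied at the 4-cell stage. BIO, an indirubin oxime, and Chiron are inhibitors of the kinase GSK3 that activate Wnt signalling. The series asks how genistein changes gene regulation in the early embryo and sets the Wnt activators beside it. Each group had 3 libraries, 12 in all. The sources used here do not give doses, the solvent for controls or the time at which BIO and Chiron were applied. Since the labels name no clutch for any replicate, p-values refer to the spread between these libraries, which may be technical.

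The libraries held 11091927 to 15486533 counts. Control 1, genistein 1 and genistein 3 stood apart: mitochondrially encoded genes took 13.5%, 14.1% and 8.37% of their counts, against 0.553% to 4.23% in the other 9, and ribosomal protein genes took 0.461% to 0.525%, against 0.181% to 0.272%. Results that rest on these libraries are therefore given with and without them. Without them genistein 2 is the sole library of its treatment, and its spread is taken from that of the other treatments and the controls. Values for genistein from that fit thus rest on 1 library, the one least like the others of its group. By chi-square per degree of freedom, genistein 2 differed from genistein 1 by 203 and from genistein 3 by 109. Between genistein 1 and 3 the value was 22.1. Markers of mesoderm, endoderm, ectoderm and maternal RNA were detected in each group, with 9, 4, 8 and 3 genes tested and none of them at 0 in any group. Only genes kept by the filter on low counts were examined, and the listed markers myf5, gata6, foxa1 and krt12 matched no name.

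Goosecoid was covered by few reads, so its values carry large counting error. The L copy was read 4, 1 and 5 times in the control libraries, 10, 5 and 13 times with genistein, 30, 25 and 36 times with BIO and 18, 7 and 9 times with Chiron. In CPM, counts scaled to a common library size, gsc.L was at 0.326, 0.0645 and 0.355 in controls, 0.897, 0.413 and 1.25 with genistein, 2.11, 1.63 and 2.48 with BIO and 1.11, 0.451 and 0.607 with Chiron. Every treated library was above every control, and the BIO libraries were above all others. A library's limit for a count of 0, set at 3 counts, lay between 0.185 and 0.288 CPM, and control 2, at 0.0645 CPM, was under its own. The 10 control counts together have an exact Poisson 95% interval of 4.80 to 18.4. Limits and intervals of this kind cover counting error only.

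The means of gsc.L were 0.249 ± 0.160 CPM in controls, 0.853 ± 0.420 with genistein, 2.07 ± 0.427 with BIO and 0.722 ± 0.343 with Chiron (SD, n = 3 each). BIO exceeded control by 3.05 ± 0.56 on the log2 scale (SE; 95% interval 1.82 to 4.29), but the adjusted p of edgeR's quasi-likelihood test over all 18791 genes was 0.222. Genistein exceeded control by 1.76 ± 0.62 (adjusted p = 0.143) and Chiron by 1.55 ± 0.61 (adjusted p = 0.645). None of these differences passed the threshold of 0.05, although genistein did, at 2.12 (adjusted p = 0.0305), without genistein 2. That fit called 4757 genes in genistein against control, where the fit of all 12 libraries called 632. With all 12 libraries edgeR called 3.36% of all genes with genistein, 0.0266% with BIO and 0% with Chiron. For Chiron, 1131 genes had an unadjusted p under 0.05 and DESeq2 called 55. All libraries of a treatment were above all controls for 7.48% of genes with genistein, 8.13% with BIO and 11.1% with Chiron.

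The S copy of goosecoid took 38, 13 and 15 counts in controls, 21, 4 and 16 with genistein, 37, 50 and 61 with BIO and 34, 20 and 25 with Chiron. Its levels were 3.10, 0.838 and 1.07 CPM in controls, 1.88, 0.330 and 1.54 CPM with genistein, 2.60, 3.26 and 4.20 CPM with BIO and 2.09, 1.29 and 1.69 CPM with Chiron. Control 1, one of the libraries that stood apart, was the highest control and overlapped the BIO range. The differences from control were −0.40 ± 0.60 on the log2 scale for genistein (adjusted p = 0.738), 1.03 ± 0.54 for BIO (adjusted p = 0.688) and 0.045 ± 0.56 for Chiron (adjusted p = 0.976).

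Summed over both copies, goosecoid had 3.39, 0.911 and 1.43 CPM in controls, 2.72, 0.746 and 2.74 CPM with genistein, 4.74, 4.90 and 6.74 CPM with BIO and 3.22, 1.75 and 2.30 CPM with Chiron. The 3 BIO libraries were above all other libraries. Of all summed genes, 7.68% had the BIO libraries above all controls and 4.7% had them above all Chiron libraries. The log2 difference from control was 1.53 ± 0.51 for BIO (95% interval 0.42 to 2.65, adjusted p = 0.690), 0.13 ± 0.54 for genistein (adjusted p = 0.923) and 0.37 ± 0.52 for Chiron (adjusted p = 0.751). The corresponding shares of the 13586 summed genes that were called were 0.0368% for BIO, 2.87% for genistein and 0% for Chiron, where 805 had an unadjusted p under 0.05 and DESeq2 called 47.

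**Figure D1:**
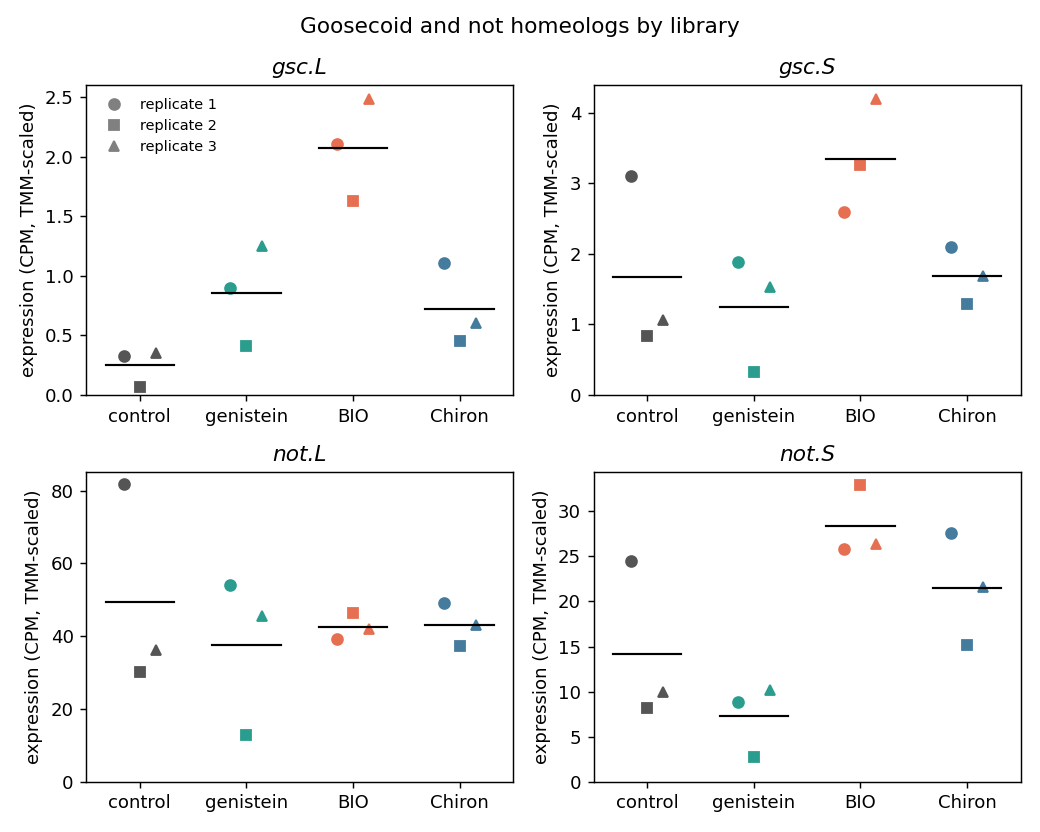
Levels of gsc.L, gsc.S, not.L and not.S in CPM by group, 1 point per library with a line at the mean of the 3 libraries. BIO libraries lead for gsc.L, at 1.63 to 2.48 CPM, while not.L spans 12.7 to 81.8 CPM with wide overlap among groups.

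The L copy of not passed the test in none of the 6 contrasts. Counts of not.L were 1002, 466 and 509 in controls, 602, 154 and 475 with genistein, 558, 713 and 610 with BIO and 799, 578 and 638 with Chiron. The levels were 81.8, 30.0 and 36.1 CPM in controls, 54.0, 12.7 and 45.6 CPM with genistein, 39.2, 46.4 and 42.0 CPM with BIO and 49.2, 37.3 and 43.0 CPM with Chiron. Control 1 was the highest of all libraries and genistein 2 the lowest, and all groups overlapped. Against control, the log2 difference was −0.40 ± 0.46 for genistein (adjusted p = 0.659), −0.21 ± 0.46 for BIO (95% interval −1.22 to 0.80, adjusted p = 0.854) and −0.19 ± 0.46 for Chiron (adjusted p = 0.863).

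The S copy of not had 300, 126 and 140 counts in controls, 98, 33 and 106 with genistein, 368, 505 and 383 with BIO and 448, 236 and 321 with Chiron. In CPM these were 24.5, 8.12 and 9.94 in controls, 8.79, 2.72 and 10.2 with genistein, 25.9, 32.9 and 26.4 with BIO and 27.6, 15.2 and 21.6 with Chiron. BIO libraries were above all controls, as for 8.13% of all genes, while genistein and Chiron each overlapped the controls. The log2 difference from control was 1.01 ± 0.46 for BIO (adjusted p = 0.688), 0.61 ± 0.46 for Chiron (adjusted p = 0.649) and −0.97 ± 0.48 for genistein (adjusted p = 0.275).

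For not summed, the group means were 63.3 ± 36.4 CPM in controls, 43.9 ± 24.8 with genistein, 71.4 ± 7.26 with BIO and 65.0 ± 12.3 with Chiron (SD, n = 3 each). Differences from control were −0.53 ± 0.46 for genistein (adjusted p = 0.545), 0.18 ± 0.46 for BIO (adjusted p = 0.876) and 0.040 ± 0.46 for Chiron (adjusted p = 0.974), none of which passed the test. In RNA of whole embryos, fewer expressing cells and less RNA per cell cannot be told apart.

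Control 1 and genistein 1 and 3 moved these comparisons. In the fit without them, edgeR called gsc.L, gsc.S and not.S higher with BIO than in the other 2 controls, at log2 differences of 3.28 (adjusted p = 0.0255), 1.80 (adjusted p = 0.0311) and 1.65 (adjusted p = 0.00551), where 1.09% of all genes were called. Summed gsc was then higher by 2.21 with BIO (adjusted p = 0.00906), where 1.12% of summed genes were called. With Chiron, not.S was higher by 1.23 (adjusted p = 0.036), the single member called of the 4, where 0.776% of genes apart and 0.764% summed were called. With genistein 2 alone, not.L differed from control by −1.39 (adjusted p = 0.00637) and not.S by −1.74 (adjusted p = 0.0342), both lower, where 6.95% of genes apart and 5.99% summed were called. The direction of summed gsc with genistein turned, from 0.13 in all libraries to −0.62 (adjusted p = 0.556).

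Between treatments, the largest difference of a member was in the S copy of not. Genistein libraries, at 2.72 to 10.2 CPM, lay below all BIO libraries, at 25.9 to 32.9 CPM, and the log2 difference of −1.98 ± 0.49 was the 1 call among the 4 members in the 6 contrasts of all 12 libraries (edgeR adjusted p = 0.0498, 95% interval −3.05 to −0.91). That call is at the threshold. It held in 3 of the 12 fits that left out a library, with adjusted p between 0.0138 and 0.155 over the 12. Those were the fits without control 1, control 2 or genistein 2, which called 2716, 745 and 8811 genes in this contrast. The call was lost with these 2 groups fitted alone (adjusted p = 0.138) and with DESeq2 size factors (adjusted p = 0.0551). With all 12 libraries 3.63% of all genes were called in this contrast, and 14.4% had all genistein libraries below all BIO libraries. Against Chiron, genistein libraries were also all below for not.S, at −1.58 ± 0.48 (adjusted p = 0.0754). Such a separation from Chiron was seen in 16.4% of all genes, and 2.35% were called. The difference passed the test without control 1 (adjusted p = 0.0379) or genistein 2 (adjusted p = 0.0435), in fits that called 2786 and 9125 genes.

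For goosecoid, the genistein libraries were below all BIO libraries for both copies, as they were for 14.4% of all genes, and neither difference passed the test. The log2 difference was −1.29 ± 0.49 for gsc.L (adjusted p = 0.103), −1.43 ± 0.57 for gsc.S (adjusted p = 0.114) and −1.41 ± 0.51 for the sum (adjusted p = 0.0964). Summed not differed by −0.70 ± 0.46 between the same groups (adjusted p = 0.299). The shares of summed genes called were 2.77% against BIO and 2.1% against Chiron. Genistein and Chiron differed by −0.24 ± 0.52 for summed goosecoid (adjusted p = 0.752) and by −0.57 ± 0.46 for summed not (adjusted p = 0.389).

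Without the 3 libraries, genistein 2 was lower than BIO, with log2 differences of −3.31 for gsc.S (adjusted p = 0.0119), −1.75 for not.L (adjusted p = 0.00113) and −3.38 for not.S (adjusted p = 0.000992), and gsc.L differed by −2.30 without passing the test (adjusted p = 0.104). In that fit 4.1% of genes apart and 3.88% summed were called. Against Chiron it was lower too, at −1.76 for not.L (adjusted p = 0.00099) and −2.97 for not.S (adjusted p = 0.00226), where 2.75% of genes apart and 2.52% summed were called.

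Between the Wnt activators no member passed the test. All BIO libraries were above all Chiron libraries for gsc.L, by 1.502 ± 0.48 on the log2 scale (95% interval 0.46 to 2.55), and for gsc.S, by 0.98 ± 0.54 (95% interval −0.19 to 2.16). For not.L the difference was −0.020 ± 0.46 (95% interval −1.03 to 0.99), and for not.S it was 0.40 ± 0.45 (95% interval −0.60 to 1.40), which contains the difference of gsc.S. All BIO libraries were above all Chiron libraries for 4.59% of all genes. The adjusted p was 1.0 for each of the 4. edgeR called 0% of genes here, apart or summed. At an unadjusted p under 0.05 there were 217 genes apart and 155 summed, and DESeq2 called 2 and 4. Since doses are not given, these values compare the treatments as applied.

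**Figure D2:**
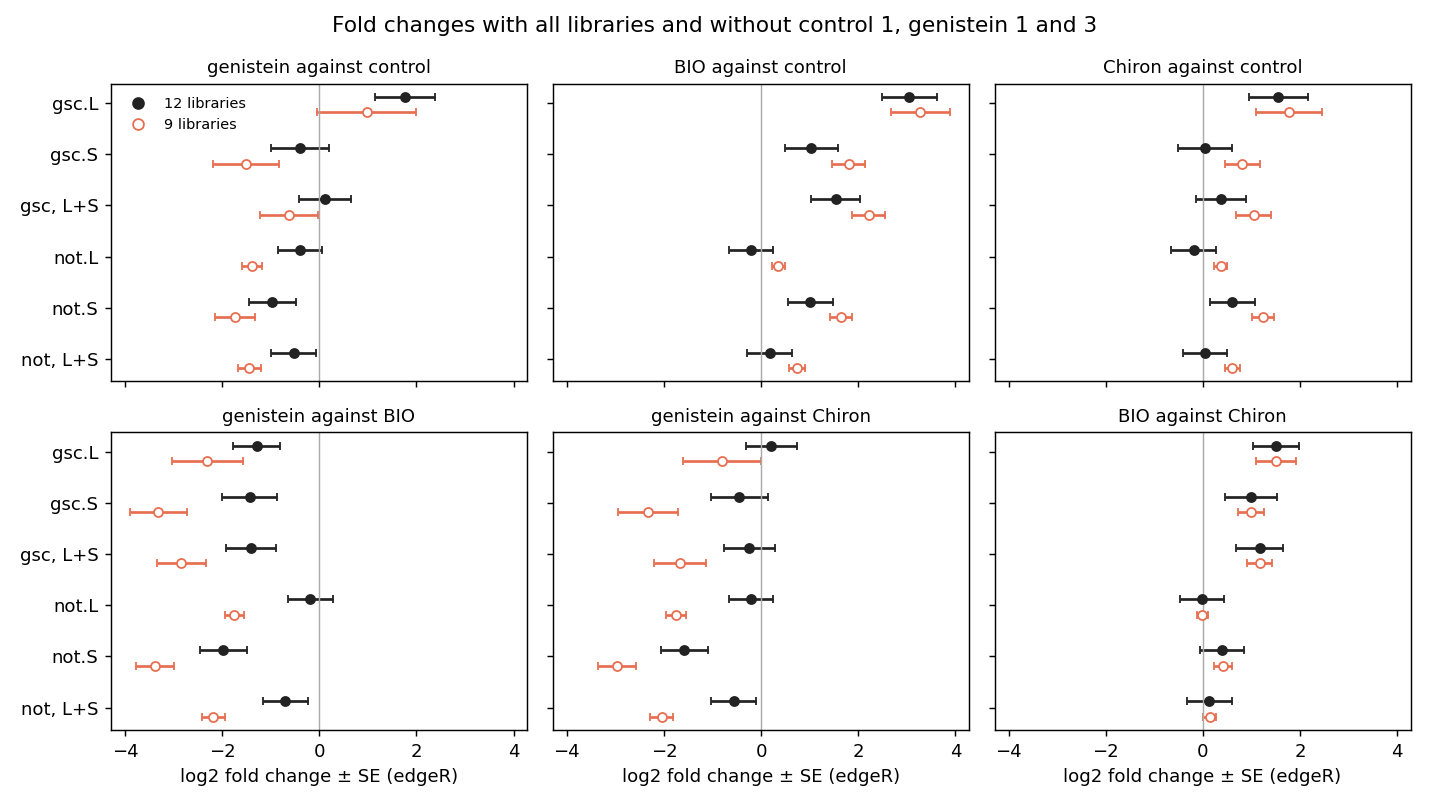
Log2 fold changes of the 4 members and the sums in the 6 contrasts, with bars of 1 SE from edgeR. Filled points are from 12 libraries and open points from 9, without control 1, genistein 1 and genistein 3; not.S in genistein against BIO is at −1.98 and −3.38.

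The balance between the L and S copies of not separated all 4 groups. The log2 ratio of not.L to not.S counts, with 0.5 added to each, was 1.74, 1.88 and 1.86 in controls, 2.61, 2.21 and 2.16 with genistein, 0.60, 0.50 and 0.67 with BIO and 0.83, 1.29 and 0.99 with Chiron. Genistein libraries were the highest, followed by controls, Chiron and BIO, with no overlap between any pair of groups. The L copy took 83.4% ± 2.30 of the not counts with genistein, 78.0% ± 0.943 in controls, 67.2% ± 3.52 with Chiron and 60.1% ± 1.45 with BIO (SD, n = 3 each). These are shares of reads, and say nothing of which copy is more abundant per length.

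An exact permutation test of the group labels over the 12 libraries gave p = 6.49e-05 for the not ratio, the smallest p that the design allows (adjusted over 3 ratio tests, 9.74e-05). With 3 libraries against 3, no pair of groups can reach an exact p below 0.1, so the pairs were taken from a fit of the log2 ratio in all 5203 homeolog pairs (limma), a test added after the data had been seen. In that fit the ratio was lower with BIO than in controls by −1.24 ± 0.16 (adjusted p = 0.0142), where 0.154% of pairs were called, and of all pairs it had rank 1 by p. The call was lost without control 1, control 3 or any 1 of the BIO libraries, and held in 7 of the 12 fits without 1 library, at −1.28 to −1.19 (adjusted p 0.00417 to 0.119). The ratio was higher with genistein than with BIO by 1.74 ± 0.16 (adjusted p = 0.000221, rank 1; 6.73% of pairs called) and than with Chiron by 1.29 ± 0.16 (adjusted p = 0.00231, rank 4; 4.09% called), and both calls held in 12 of 12 such fits.

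Against control, the difference of 0.50 ± 0.16 in the not ratio with genistein missed the threshold (adjusted p = 0.0677), in a contrast where 8.5% of pairs were called. So did the difference of −0.79 ± 0.16 with Chiron (adjusted p = 0.160), where 0% of pairs were called by limma and 389 had an unadjusted p under 0.05. Without genistein 2 both passed, at 0.56 (adjusted p = 0.0294) and −0.79 (adjusted p = 0.0428). Between BIO and Chiron the difference was −0.45 ± 0.16 (adjusted p = 1.0), where 0% of pairs were called by limma and 106 had an unadjusted p under 0.05. Without control 1 and genistein 1 and 3, the difference was −1.28 with BIO (adjusted p = 0.00112), −0.83 with Chiron (adjusted p = 0.0126) and 0.33 with genistein (adjusted p = 0.303). Control 1 itself, at 1.74, was close to the other controls in this ratio, although it was far above them in the level of both copies. All 4 groups were apart in 13 of the 5203 pairs (0.25%), including that of not. Of 25 homeolog pairs among the pathway genes listed for organizer function, limma called 2 with genistein, chrd.1 and dkk1, 1 with BIO, ventx2, and 0 with Chiron against control. In genistein against BIO it called 3, dkk1, bmp7.2 and ventx2, where 6.73% of all pairs were called. Against Chiron it called 2, dkk1 and bmp7.2, where 4.09% of all pairs were called. The dkk1 ratio rests on 0 counts of dkk1.L with genistein.

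**Figure D3:**
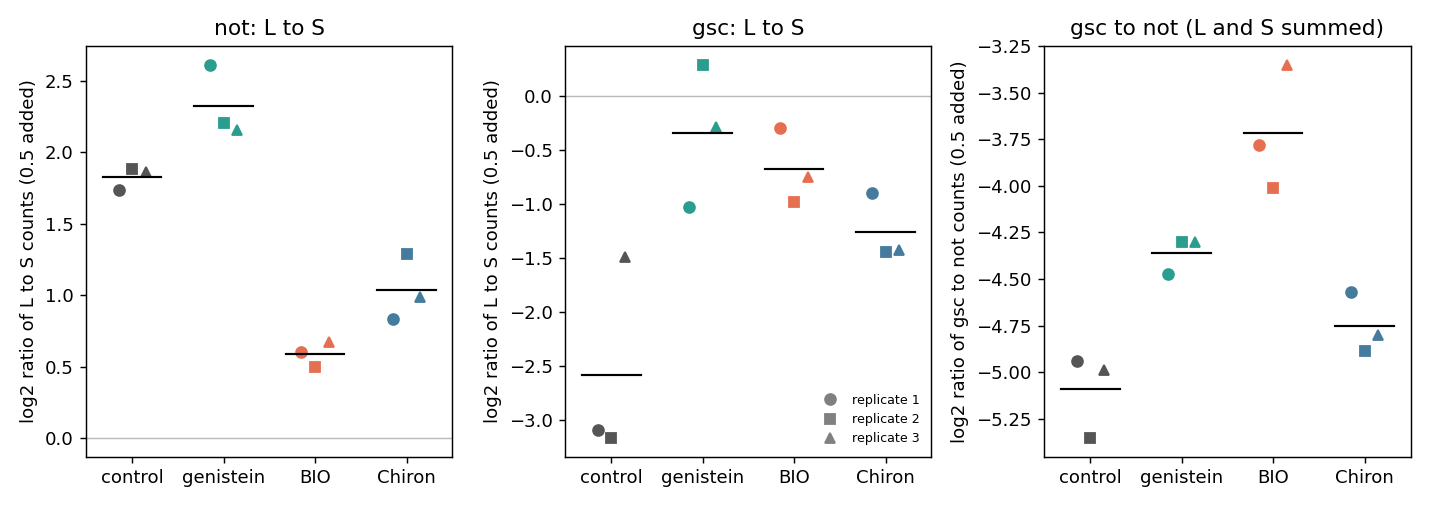
Log2 ratios by group, 1 point per library: L to S counts of not, L to S counts of goosecoid, and goosecoid to not. For not the groups lie in separate bands, from 0.50 to 0.67 with BIO up to 2.16 to 2.61 with genistein.

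The ratio of gsc.L to gsc.S had all treatments on the same side of the controls. It was −3.10, −3.17 and −1.49 in controls, −1.03, 0.29 and −0.29 with genistein, −0.30, −0.99 and −0.75 with BIO and −0.90, −1.45 and −1.42 with Chiron. Every control was below every treated library, by a margin of only −1.49 against −1.45 at the closest. How many of the 5203 homeolog pairs have all controls on one side was not counted. The L copy took 13.9% ± 9.70 of the goosecoid counts in controls, 44.2% ± 11.7 with genistein, 38.4% ± 5.83 with BIO and 29.0% ± 4.87 with Chiron. The exact permutation test over the 12 libraries gave p = 0.00487 (adjusted 0.00487).

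In the fit of all pairs the goosecoid ratio was higher than in controls by 2.24 ± 0.54 with genistein (adjusted p = 0.0232), rank 268 of 5203 by p in a contrast where 8.5% of pairs were called. That call was lost without control 1, control 2 or genistein 3 singly. The ratio differed from controls by 1.91 ± 0.54 with BIO (adjusted p = 0.360) and by 1.33 ± 0.54 with Chiron (adjusted p = 0.599). Without control 1, genistein 1 and genistein 3 the differences of gsc were 2.62 (adjusted p = 0.0362), 1.65 (adjusted p = 0.214) and 1.07 (adjusted p = 0.532). These ratios rest on 10 reads of gsc.L over the control group. The sources used here do not say how reads that match both copies were counted, and the split between L and S is therefore uncertain in level for both genes.

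Goosecoid and not also changed relative to each other. The log2 ratio of summed goosecoid to summed not was −4.94, −5.35 and −4.99 in controls, −4.47, −4.30 and −4.30 with genistein, −3.78, −4.01 and −3.35 with BIO and −4.57, −4.89 and −4.80 with Chiron. The groups did not overlap, with BIO the highest, then genistein, Chiron and controls. At the closest, Chiron 2 was at −4.89 and control 1 at −4.94, on 27 and 42 goosecoid counts. Goosecoid had 9 counts in genistein 2 and 14 in control 2, so these ratios carry large counting error. How many other pairs of genes separate the groups in this way was not counted. The means were −5.09 ± 0.227, −4.36 ± 0.0999, −3.71 ± 0.337 and −4.75 ± 0.164 for controls, genistein, BIO and Chiron (SD, n = 3 each), and the exact permutation test gave p = 6.49e-05 (adjusted 9.74e-05), the smallest possible. Control 1 was at −4.94 here, close to control 3 at −4.99, although its summed levels of both genes were the highest of the control group.

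Of the genes that act upstream of goosecoid and not, siamois passed the test with BIO. The list of inputs held siamois and twin, the Nodal ligands and their cofactors, vegt, eomes, mix factors and Wnt effectors, and 29 of its genes were tested. With BIO 1 of them rose, sia1.L, which encodes siamois, from 8.80 ± 3.42 to 52.8 ± 5.04 CPM (log2 difference 2.59, adjusted p = 0.0477), and 24 of 29 had a positive difference. The call held without control 1, genistein 1 or genistein 2 and was lost without any other 1 library (adjusted p 0.00757 to 0.498). The median was 0.82, beside 0.012 over all genes, of which 51.6% were positive and 0.0266% were called. Copies of a gene are counted apart in these lists and are not independent. With Chiron none was called, sia1.L differed by 2.33 (adjusted p = 0.0874), and the median was 0.57. Without control 1, genistein 1 and genistein 3, the medians were 1.17 with BIO, 1.14 with Chiron and −0.34 with genistein. Several of these inputs were called higher than control in that fit, with BIO and with Chiron. With genistein tcf7l1.L, a repressor of Wnt targets, fell by 0.60 on the log2 scale (adjusted p = 0.0239) and smad2.L, which carries the Nodal signal to the nucleus, fell by 0.40 (adjusted p = 0.0434). The first call was lost without control 2, control 3 or genistein 3, and the second in all single-library omissions but that of genistein 2. Both held without control 1, genistein 1 and genistein 3 together. The median was −0.025, beside 0.026 over all genes, of which 3.36% were called.

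Between treatments, 5 of these 29 genes passed as lower with genistein than with BIO and none as higher, where 3.63% of all genes were called. The log2 differences were those of sia1.L (−2.61), sia2.S (−1.71), nodal1.L (−2.43) and the nodal3 copies nodal3.1.L (−3.00) and nodal3.2.L (−3.15). Against Chiron, where 2.35% of all genes were called, 4 passed as lower, sia1.L (−2.36), sia2.S (−1.96), nodal3.1.L (−3.00) and nodal3.2.L (−3.41). The calls of sia1.L held in 12 of 12 fits without 1 library against either activator, and those of sia2.S in 4 of 12, without control 1, control 2, genistein 1 or genistein 2. The nodal1.L and nodal3.2.L calls against BIO were lost without BIO 3, and the nodal3.1.L call without genistein 3 or BIO 3 against BIO and without genistein 3, Chiron 1 or Chiron 3 against Chiron. Against control, sia1.L differed by −0.025 with genistein (adjusted p = 0.978). Numbered copies such as nodal3.1 and nodal3.2 are tandem duplicates whose reads may have been split in counting, so each is uncertain on its own.

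Among the secreted organizer factors, which include blockers of BMP and Wnt ligands, none passed against control in any treatment with all 12 libraries. Of 13 genes, 12 were positive with BIO (median 0.93) and 12 with Chiron (median 0.81), and 10 were negative with genistein (median −0.91). Over all genes, 51.6% were positive with BIO, 52.4% with Chiron and 52.9% with genistein. The chordin copy chrd.1.L was at 1.30 ± 0.999 CPM in controls, 0.397 ± 0.404 with genistein, 3.43 ± 0.139 with BIO and 7.67 ± 3.11 with Chiron. Its S copy, chrd.1.S, was at 1.01 ± 0.985, 1.28 ± 1.30, 4.79 ± 0.926 and 6.95 ± 2.93 CPM in the same order, and was thus not lower with genistein. With control 1, genistein 1 and genistein 3 left out, the medians were 1.66 with BIO and 1.43 with Chiron. Some of the 13 passed as higher than control in that fit, with BIO and with Chiron. With all 12 libraries, all 13 had a negative difference with genistein against either activator, and 3 passed in each contrast. Of all genes, 48.6% were positive and 3.63% called against BIO, and 47.3% were positive and 2.35% called against Chiron. Those called against BIO were admp.L (−2.42), chrd.1.L (−3.11) and fst.L, read 1 time with genistein and 33 times with BIO, a ratio of 25.2 with an exact 95% interval of 4.22 to 1025, and those against Chiron were admp.L (−2.67), chrd.1.L (−4.27) and chrd.2.L (−4.12). Of the single-library omissions, each call against BIO, and that of admp.L against Chiron, held in those of control 1, control 2 or genistein 2 and was lost in the other 9. In the fit without control 1, genistein 1 and genistein 3 together, fst.L was lost (adjusted p = 0.127) and the others held. Against Chiron, chrd.1.L was lost without genistein 3, Chiron 1 or Chiron 3, and chrd.2.L without genistein 1, BIO 1, BIO 3, Chiron 1 or Chiron 3. The Wnt inhibitor gene dkk1.L had 33 counts over the controls and 0 over the genistein libraries, at least 8.85-fold lower if the floor is set at 3 counts per group (adjusted p = 0.0607). Its S copy, dkk1.S, had 40 counts over the controls and 35 with genistein, a log2 difference of 0.13 (edgeR adjusted p = 0.909).

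Of other organizer transcription factors, 3 of the 9 symbols listed matched a name and 4 genes were tested, lhx1.S, otx2.S, foxa4.L and foxa4.S. None was called in any of the 6 contrasts, and their medians were −0.42 with genistein, 0.58 with BIO and 0.58 with Chiron. Without control 1, genistein 1 and genistein 3, 5 were tested, with medians of −1.30, 1.65 and 0.41. Forkhead factor foxa4.L, active in dorsal mesoderm, was at 4.91 ± 4.76 CPM in controls, 4.26 ± 2.91 with genistein, 12.1 ± 2.42 with BIO and 10.03 ± 4.95 with Chiron. Notochord genes, 10 tested and partly shared with the lists above, had medians of −1.03, 1.13 and 1.18 with no call against control. Without the same 3 libraries the medians were −1.78, 1.82 and 2.12, and some notochord genes passed as higher with BIO and with Chiron.

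Among the ventral opponents and the genes that goosecoid represses, 23 were tested. With all 12 libraries the 1 call was szl.S, which encodes the secreted BMP-pathway regulator sizzled. It fell by 1.28 on the log2 scale with genistein (adjusted p = 0.023), a call lost without control 2, genistein 1 or genistein 3. Of all genes, 3.36% were called with genistein. The median of the list was 0.31 with genistein, 0.73 with BIO and 0.13 with Chiron. The ventral homeobox genes ventx2.2.L and ventx2.L stood at 9.73 ± 6.99 and 12.3 ± 8.37 CPM in controls and at 42.7 ± 2.42 and 52.8 ± 5.66 with BIO. These log2 differences of 2.14 (adjusted p = 0.367) and 2.11 (adjusted p = 0.371) did not pass the test. Without control 1, genistein 1 and genistein 3, the medians were −0.67 with genistein, of the opposite sign, 0.99 with BIO and 0.65 with Chiron. Several genes of the list passed there as higher than control with BIO and with Chiron. In that fit the medians with genistein were −2.36 against BIO and −1.62 against Chiron. No gene of the list passed in those contrasts with all 12 libraries.

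**Figure D4:**
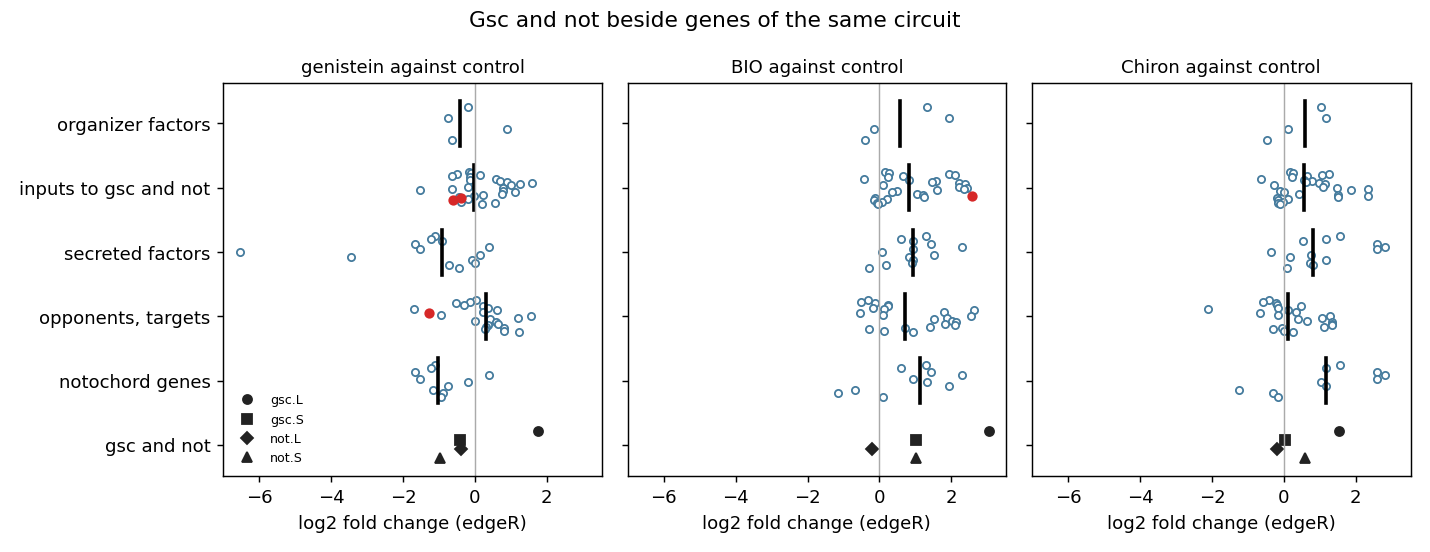
Log2 fold changes against control for each gene list, with the 4 members in the lowest row. Filled red points passed the edgeR test and bars are medians; the point near −6.5 is dkk1.L, with 0 counts in the genistein group.

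Mesendoderm genes were among those whose levels over the libraries were most like goosecoid. Of 10623 gene symbols with a mean of at least 1 CPM, the 5 nearest to summed goosecoid over the 12 libraries were mespa, mix1, sox17a, msx1 and bix1.3, with root mean square differences of 0.294, 0.298, 0.304, 0.310 and 0.317 in centred log2 values. The Mix-family factors mix1 and bix1.3 and the endoderm factor sox17a act in mesendoderm. With L and S summed, none of these 5 genes was called in any contrast. With the copies apart, sox17a.S was called lower in genistein against BIO, a call that held in 4 of 12 fits without 1 library. Of the 5, mix1 is also on the list of inputs, and msx1 is on that of opponents and repressed targets. For example, mix1 was at 54.6 CPM with BIO and 19.0 in controls, a log2 difference of 1.52 (adjusted p = 0.643). The summed level of the 4 endoderm markers, which include the sox17a copies, was 62.8 to 74.1 CPM with BIO and 44.7 to 60.5 with Chiron. It was 20.2 to 33.5 CPM in controls and 19.5 to 37.3 with genistein. Its part in the goosecoid values was not tested.

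The 5 nearest to summed not were ier2, esr-5, bmp4, gdf3 and sgk1, at 0.181, 0.198, 0.218, 0.262 and 0.289. They include the ligand genes bmp4 and gdf3, the latter encoding a TGF-beta family ligand. Of these, bmp4 is also on the list of opponents and repressed targets, and gdf3 is on that of inputs. Not itself ranked 32 of 10623 in likeness to goosecoid, at 0.471, and goosecoid ranked 116 in likeness to not. The likeness is a description of 12 libraries that share groups and depth.

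**Figure D5:**
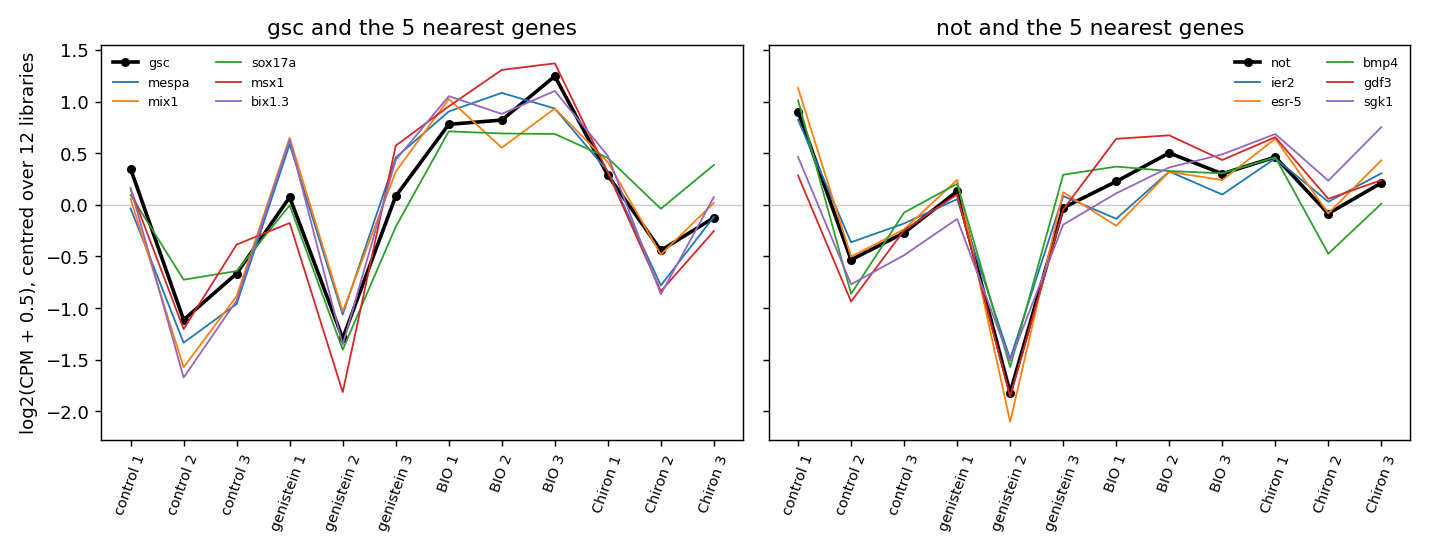
Centred log2(CPM + 0.5) values over the 12 libraries for goosecoid and not, each with its 5 nearest genes. Goosecoid and its neighbours are above their means in all BIO libraries, and not and its neighbours are above their means in control 1 and lowest in genistein 2.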

How the data were processed

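Strand-specific poly-A RNA sequencing was done on 60 ng of total RNA per library, per the labels' protocols. The authors deposited 1 table of raw read counts per gene for 18892 genes. STAR 2.5.2b and edgeR are named in the submitters' processing notes. The genome build is not given in the sources used here, nor are the annotation and counting tool.

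Counts were analysed in R 4.3.3. Genes were kept by filterByExpr (101 removed), scaled by TMM and fitted in 1 edgeR 4.0.16 quasi-likelihood model of 12 libraries, without a replicate block. The 6 contrasts were tested, with Benjamini-Hochberg adjustment over all genes and calls at 0.05. L and S counts were also summed per symbol. Intervals are at 95%. Log2 ratios used 0.5 added to each count, an exact permutation test over libraries, and limma 3.58.1 over all homeolog pairs, a fit chosen after seeing the data. The exact test counted assignments of libraries to groups with a between-group sum of squares at least that observed. Its p-values were adjusted with scipy 1.17.1. DESeq2 1.42.0, other scalings, filters, a mitochondrial covariate and left-out libraries were alternatives. The pipeline was tested on simulated data. No replicates were near-identical.

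The members and gene lists were chosen with earlier results of these data known. Every member of the pathway lists that edgeR called in all 12 libraries was named, or otherwise up to 4 with the smallest p. Called members of the germ layer and maternal marker lists were not all named. The 5 genes nearest in level to each gene summed were named too. All 4 members matched a symbol of the RefSeq table of the Xenopus laevis v10.1 assembly. Promoter and protein sequences were not used here.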

Additional observations from a re-analysis of the deposited data

How the results depend on the processing

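The exact tests of the 3 ratios kept their side of 0.05 under every alternative run. These tests have no direction, and the order of the groups was not compared across the alternatives. For summed genes, DESeq2 called gsc in genistein against BIO (−1.38, adjusted p = 0.0465), where it called 2800 summed genes. With the mitochondrial share as covariate, gsc in genistein against control turned to −0.067, and calls appeared for not in genistein against control (−0.78), gsc and not in BIO against control (2.36 and 0.96), gsc and not in genistein against BIO (−2.43 and −1.73) and not in genistein against Chiron (−1.61). That covariate turned not.L in BIO and in Chiron against control to 0.59 and 0.62, and gsc.L in genistein against Chiron to −0.29. Without control 1, genistein 1 and genistein 3 the same values were −0.62, −1.44, 2.21 for gsc in BIO against control, −2.84, −2.18, −2.05, 0.36, 0.37 and −0.80, and not in BIO against control was not called. The cause was not tested. Of 13586 summed genes, the fit with the covariate called 3216 in genistein against control and 191 in BIO against control. It called 898 in genistein against BIO and 667 in genistein against Chiron. Library totals in place of TMM moved the median of all genes by −0.12 in genistein against control, −0.17 in genistein against BIO and −0.16 in genistein against Chiron. The labels give no pairing of replicates. Deviations of libraries with the same replicate number correlated from −0.61 to 0.81 over all pairs of groups. Between control and genistein the correlations were 0.73, 0.81 and −0.32 for replicates 1, 2 and 3. Whether these groups are paired was therefore not settled. The replicate block gave 1.68 for gsc in BIO against control (adjusted p = 0.353), turned not.L in BIO against Chiron to 0.043 and changed no call of a member.

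Leaving out 1 library, the summed log2 fold change of gsc ranged from −0.22 to 0.81 in genistein against control and from −0.49 to 0.22 in genistein against Chiron. That of not ranged from −0.84 to 0.048 with genistein, −0.083 to 0.75 with BIO and −0.22 to 0.62 with Chiron against control. Among the copies, the range was −0.84 to 0.38 for gsc.S and −0.76 to 0.18 for not.L with genistein, −0.28 to 0.83 for gsc.S and −0.45 to 0.38 for not.L with Chiron, and −0.47 to 0.36 for not.L with BIO, against control. Between treatments, it was −0.16 to 0.67 for gsc.L, −0.89 to 0.047 for gsc.S and −0.57 to 0.24 for not.L in genistein against Chiron, −0.55 to 0.25 for not.L in genistein against BIO and −0.12 to 0.085 for not.L in BIO against Chiron.

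The number of all genes called over the alternatives ranged from 1 to 4757 in genistein against control (632 as reported), 0 to 269 in BIO against control (5), 0 to 195 in Chiron against control (0), 0 to 8811 in genistein against BIO (683), 17 to 9125 in genistein against Chiron (441) and 0 to 5 in BIO against Chiron (0). With L and S summed the ranges were 0 to 3415 (390), 0 to 191 (5), 0 to 150 (0), 2 to 6550 (377), 8 to 6810 (285) and 0 to 5 (0). Depth limits gsc.L, which had 10 counts over the control group.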
